A study of Mus musculus with 6 samples.

Results

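DNA methylation is written, read and erased by a small group of enzymes and binding proteins, and 9 of their genes were followed in embryonic mouse cardiomyocytes after knockdown of DNMT1. The genes were chosen by name and not by a value in the counts, although earlier results of these data were known. They are the DNA methyltransferases Dnmt1, Dnmt3a and Dnmt3b, the hemimethylated DNA readers Uhrf1 and Uhrf2, the methylcytosine dioxygenases Tet1, Tet2 and Tet3, and Tdg, which encodes thymine DNA glycosylase. All 9 were among the 43629 genes in the count tables, and all 9 were among the 15470 genes that passed the filter on low counts. Dnmt1, the targeted gene, fell to 24.5% of its negative siRNA level and was the only member past the limits for a change in the fit with all cultures. The other 8 members had log2 fold changes between -0.22 and 0.43.

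Primary cardiomyocytes came from the ventricles of CD-1 mouse embryos at embryonic day 13.5, were cultured for 48 h, and were transfected with 12 nM negative siRNA or with 12 nM DNMT1 siRNA. At 72 h the cells were sorted on magnetic columns with an anti-VCAM1 antibody, and their polyadenylated RNA was sequenced from 3 cultures per treatment. The DNMT1 reagent was a pool of 4 siRNAs, so the effect of a single siRNA cannot be told apart, and ventricles were pooled by litter before culture. The labels do not say whether the cultures of a treatment came from separate litters, so the p-values measure only the spread between these cultures, which may be technical. The titles of the knockdown samples name DNMT1, whereas a treatment tag on the same samples names DNMT3a, and the titles were followed.

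In mammals, DNMT1 copies methylation onto the new strand after each round of replication, and UHRF1 recruits it by binding hemimethylated CpG sites. DNMT3A and DNMT3B methylate sites that carried no mark, and UHRF2 is the paralog of UHRF1. The TET enzymes oxidise 5-methylcytosine in steps, and TDG removes the most oxidised forms so that base excision repair can restore an unmethylated cytosine.

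Reads counted on genes ranged from 27852412 to 35896018 in the negative siRNA cultures and from 13739561 to 16186310 in the DNMT1 siRNA cultures. Uniquely mapped reads outside annotated exons made up 14.6% to 17.5% of the first group and 24.4% to 32.0% of the second (exact permutation test, two-sided, p = 0.1, which is the lowest value possible with 3 cultures per treatment). Values are given as CPM, in which each count is divided by the effective size of its library after TMM scaling. Replicate 2 of negative siRNA stood apart on the second principal component of the log2 CPM, at 37.1 against -24.0 and -18.4 for the other negative siRNA cultures and between -0.44 and 4.17 for the DNMT1 siRNA cultures. Replicate 1 of negative siRNA had the highest value of the 6 cultures for 20 of 22 genes of S phase and cycling cells, against 17.0% of all genes tested. Where leaving out either culture changed a call on a named gene or moved its value clearly, the value without it is given as well.

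The labelled cell type was checked against its markers. All 9 cardiomyocyte markers were detected, among them Tnnt2, Myh6, Actn2, Ttn, Ryr2, Nkx2-5 and Vcam1. Their summed level was 2128 to 2644 CPM with negative siRNA and 4373 to 5228 CPM with DNMT1 siRNA. The 7 fibroblast markers summed to 29342 to 45207 CPM and 21468 to 22647 CPM, of which Col1a1, a collagen chain, held 23247 ± 5939 and 14774 ± 341 CPM (SD, n = 3 each). The 4 smooth muscle markers summed to 4942 to 7615 CPM and 4208 to 4401 CPM, and the 4 epicardial markers to 1179 to 1370 CPM and 1270 to 1312 CPM. The 5 endothelial markers stayed at or below 89.1 CPM in sum, the 5 macrophage markers at or below 17.5 CPM, and the 4 erythroid markers at or below 2.75 CPM, where Hba-a2 had no count in any culture. RNA of fibroblast, smooth muscle and epicardial marker genes was therefore present beside that of cardiomyocyte genes, and its part in the results for the 9 genes was not tested. In bulk RNA, fewer cells of a type and less RNA per cell cannot be told apart.

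Dnmt1 (ENSMUSG00000004099, chr9:20907209-20959888 of GRCm38, minus strand) encodes the maintenance methyltransferase. Its level was 159, 127 and 133 CPM in negative siRNA replicates 1, 2 and 3, and 35.6, 36.2 and 30.7 CPM in DNMT1 siRNA replicates 1, 2 and 3. The groups were far apart, and the lowest negative siRNA culture was above every knockdown culture by a wide margin. The means were 139 ± 16.9 and 34.1 ± 3.03 CPM (SD, n = 3 each), resting on 3701 to 5906 reads and on 407 to 576 reads. The log2 fold change of Dnmt1 was -2.03 (SE 0.11, 95% interval -2.28 to -1.78, adjusted p = 0.000192 with edgeR's quasi-likelihood test and Benjamini-Hochberg adjustment over all genes tested). A gene was called changed with an adjusted p below 0.05 and a fold change above 1.5, and 6.49% of the genes tested were called. Genes called lower made up 2.23% and genes called higher 4.26%. Of the 9 members, 1 was called lower and 0 were called higher by edgeR's quasi-likelihood test, and DESeq2 and edgeR's exact test gave the same counts. Past the adjusted threshold at any fold were 1 member with lower and 0 with higher values, against 5.65% and 6.81% of the genes tested. Before adjustment, edgeR's quasi-likelihood test put 2 members with higher values, Dnmt3a and Tet1, and 2 with lower values, Dnmt1 and Tet3, past the same threshold, against 14.9% and 14.3% of the genes tested.

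**Figure D1:**
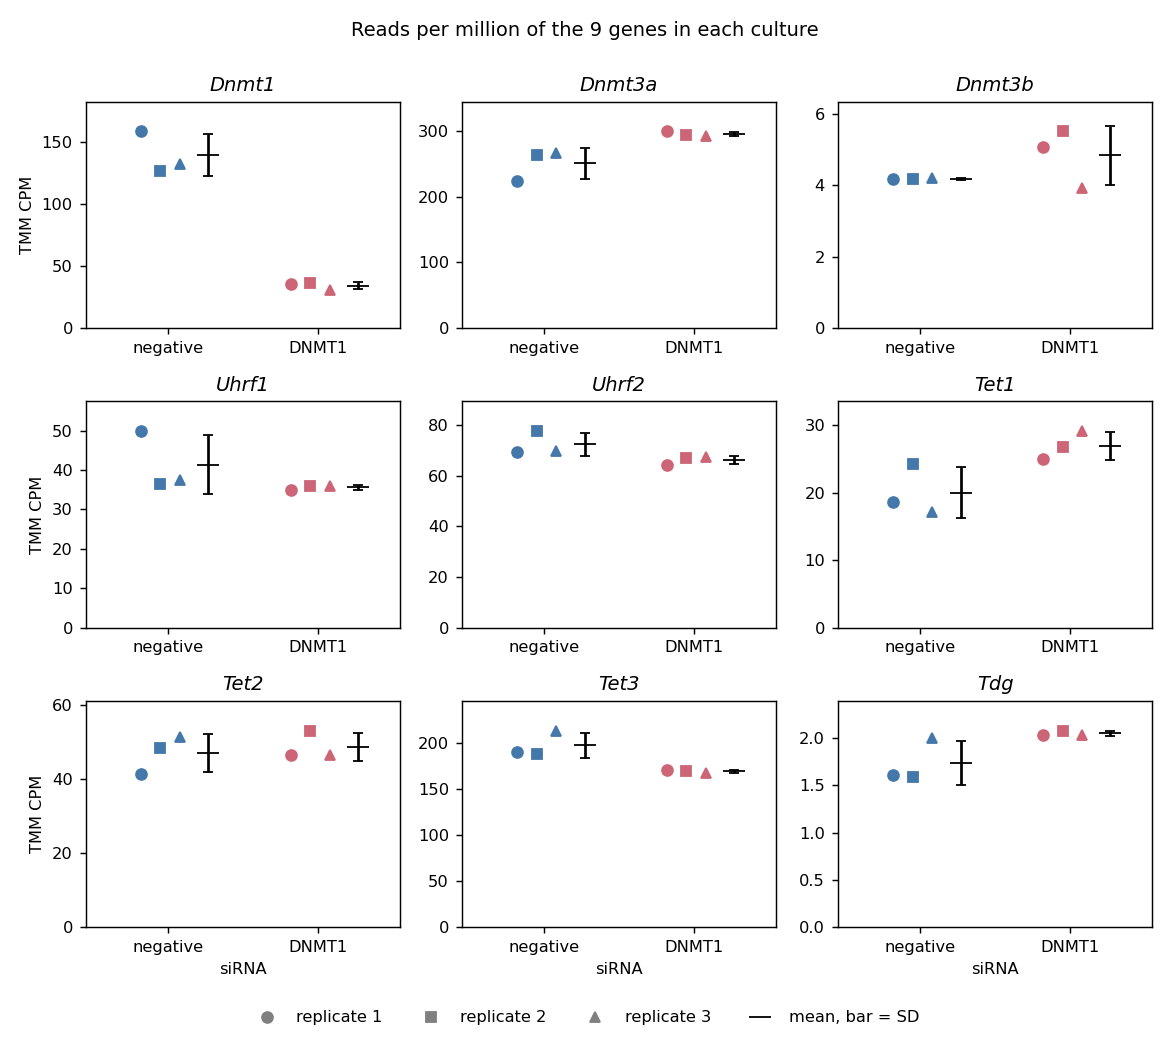
TMM CPM (vertical axes, from 0) of the 9 genes in each culture, with negative siRNA in blue, DNMT1 siRNA in red, a symbol for each replicate number and the mean with its SD in black (n = 3). Dnmt1 dropped from 127 to 159 CPM to 30.7 to 36.2 CPM, whereas the means of the other genes stood between 85.7% and 135% of those with negative siRNA.

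Dnmt3a (ENSMUSG00000020661, chr12:3806007-3914443, plus strand) encodes a de novo methyltransferase. It measured 224, 263 and 266 CPM with negative siRNA and 299.7, 295 and 293 CPM with DNMT1 siRNA. All 3 knockdown cultures were above all 3 negative siRNA cultures, and the knockdown cultures were close to each other. Its log2 change was 0.24 (SE 0.08, 95% interval 0.05 to 0.42, adjusted p = 0.0919), which did not pass the threshold, and the interval does not reach a 1.5-fold change. Without negative siRNA replicate 2, the culture that stood apart, the change was 0.27 and the adjusted p 0.0430, still short of 1.5-fold. Without negative siRNA replicate 1, in which Dnmt3a was lowest, the change shrank to 0.16 and did not pass the threshold. Dnmt3a, the gene that the treatment tag names, was thus not lower in the cultures so tagged.

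Dnmt3b (ENSMUSG00000027478, chr2:153649450-153687730, plus strand), the second de novo methyltransferase gene, was at a low level. It had 4.17, 4.16 and 4.19 CPM with negative siRNA, and 5.06, 5.50 and 3.92 CPM with DNMT1 siRNA. The groups overlapped, since DNMT1 siRNA replicate 3 was below every negative siRNA culture. With 52 to 155 reads per culture, the log2 change was 0.21 (SE 0.17, 95% interval -0.18 to 0.60, adjusted p = 0.444), and a 1.5-fold increase was within the interval.

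Uhrf1 (ENSMUSG00000001228, chr17:56303321-56323486, plus strand) measured 49.9, 36.4 and 37.6 CPM with negative siRNA and 34.9, 35.8 and 36.1 CPM with DNMT1 siRNA. Only negative siRNA replicate 1 stood above the rest, and negative siRNA replicate 2 was only 0.30 CPM above the highest knockdown culture. On the log2 scale the change was -0.22 (SE 0.12, 95% interval -0.50 to 0.07, adjusted p = 0.291), and it shrank to -0.05 without negative siRNA replicate 1. In that culture most S phase and cycling genes were also at their highest. Their list counted 20 of 22 genes, among them Top2a, a topoisomerase of dividing cells, at 233 CPM against 166 to 186 CPM in the other 5 cultures, and Mki67, a proliferation marker, at 308 CPM against 223 to 279 CPM. Dnmt1 itself was also highest there. These 2 of the 9 members (22.2%) compare with 17.0% of all genes tested that were highest in that culture.

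Uhrf2 (ENSMUSG00000024817, chr19:30030513-30093722, plus strand) measured 69.3, 77.6 and 69.9 CPM with negative siRNA and 64.1, 67.0 and 67.2 CPM with DNMT1 siRNA. The groups did not overlap, but the gap of 2.10 CPM between them was smaller than the SD of the negative siRNA cultures, 4.64 CPM. The log2 change was -0.13 (SE 0.07, 95% interval -0.29 to 0.04, adjusted p = 0.282), and -0.07 without negative siRNA replicate 2. For both readers the interval excludes a 1.5-fold change.

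Tet1 (ENSMUSG00000047146, chr10:62804570-62908996, minus strand) had the largest increase among the members. Its level was 18.6, 24.3 and 17.1 CPM with negative siRNA and 24.9, 26.7 and 29.1 CPM with DNMT1 siRNA. The groups did not overlap, although negative siRNA replicate 2 came within 0.63 CPM of the lowest knockdown culture. Its log2 change was 0.43 (SE 0.14, 95% interval 0.11 to 0.75, adjusted p = 0.0825). Without negative siRNA replicate 2 it was 0.59 (adjusted p = 0.00517), past both limits, so the call depends on this culture. Over the alternatives that kept all cultures, the adjusted p of Tet1 ranged from 0.0141 to 0.0976. Of the 5 endothelial markers, Pecam1, Cdh5, Kdr and Emcn were likewise highest among the negative siRNA cultures in replicate 2. Pecam1 and Cdh5 were at 14.4 and 25.4 CPM there against 5.26 to 6.23 and 9.94 to 12.0 CPM in the other 2. Tek, the most highly expressed of the 5 per length, went the other way, with 33.4, 30.3 and 28.2 CPM with negative siRNA and 23.8 to 24.5 CPM with DNMT1 siRNA. The pattern was not particular to endothelial markers. Of the 7 fibroblast markers, Col1a1, Col1a2, Pdgfra, Postn and Lum were also highest among the negative siRNA cultures in replicate 2. Dcn and Tcf21 were lowest there. Col1a1 was at 30104 CPM in replicate 2 against 19722 and 19915 CPM in replicates 1 and 3. The part of any of these markers in the Tet1 result was not tested.

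Tet2 (ENSMUSG00000040943, chr3:133463679-133545139, minus strand) measured 41.5, 48.5 and 51.5 CPM with negative siRNA and 46.7, 53.2 and 46.5 CPM with DNMT1 siRNA. The groups overlapped throughout. The log2 change was 0.05 (SE 0.10, 95% interval -0.18 to 0.28, adjusted p = 0.782), the smallest of the members, and its interval excludes a 1.5-fold change either way. It was -0.03 without negative siRNA replicate 1.

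Tet3 (ENSMUSG00000034832, chr6:83362373-83459084, minus strand) was the most highly expressed dioxygenase gene. It measured 190, 189 and 214 CPM with negative siRNA and 171, 169 and 168 CPM with DNMT1 siRNA. Each knockdown culture was below each negative siRNA culture. The change on the log2 scale was -0.22 (SE 0.07, 95% interval -0.38 to -0.06, adjusted p = 0.0734). The adjusted p fell below 0.05 with DESeq2 (0.0349), with library totals as the only scaling (0.0460) and without the filter on low counts (0.0448), and was lowest without negative siRNA replicate 2 (0.0287, with a log2 change of -0.25), but the fold change stayed under 1.5 in each of them.

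Tdg (ENSMUSG00000034674, chr10:82629828-82650799, plus strand) had the fewest reads, with 27 to 60 per culture. It measured 1.61, 1.59 and 2.01 CPM with negative siRNA and 2.04, 2.08 and 2.03 CPM with DNMT1 siRNA. Negative siRNA replicate 3 lay next to the knockdown cultures and the other 2 lay below. The log2 change was 0.24 (SE 0.21, 95% interval -0.25 to 0.74, adjusted p = 0.491). Stretches of its transcript also occur in processed pseudogenes and other genes, as described further on, and how reads from them were placed cannot be read from the counts.

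In 7 of the 9 members, the cultures of the 2 treatments did not overlap, namely Dnmt1, Uhrf1, Uhrf2 and Tet3 with lower and Dnmt3a, Tet1 and Tdg with higher values after knockdown. Among all genes tested, 36.0% did not overlap, 17.7% with lower and 18.3% with higher values. For Uhrf1 and Tdg, the nearest cultures of the 2 treatments were separated by 0.30 and 0.03 CPM. The median log2 fold change of the 9 members was 0.05, against -0.01 over all genes tested.

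**Figure D2:**
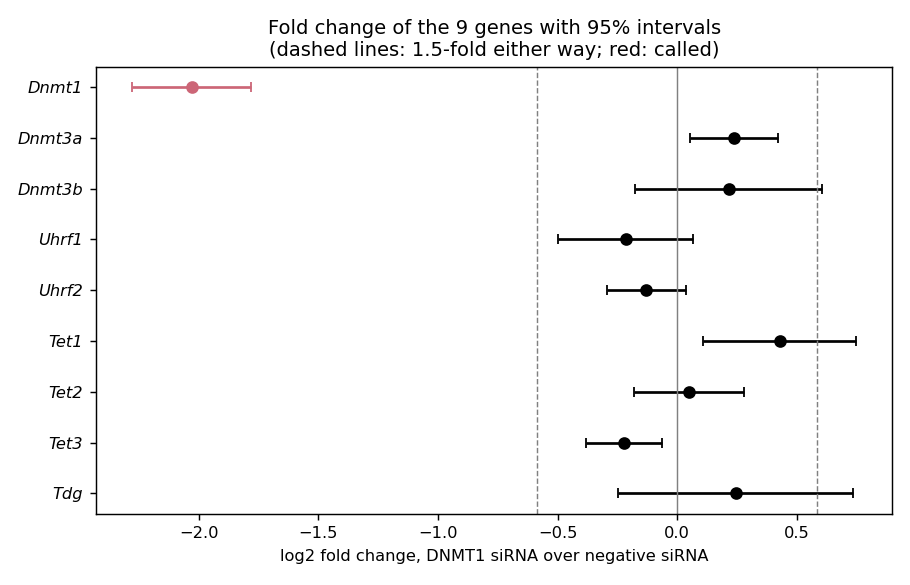
Log2 fold change of DNMT1 siRNA over negative siRNA (horizontal axis) for the 9 genes, with 95% intervals from edgeR's quasi-likelihood fit and dashed lines at 1.5-fold either way. Dnmt1 lies at -2.03, the interval of Tet1 reaches 0.75, and the intervals of Dnmt3a, Uhrf1, Uhrf2, Tet2 and Tet3 lie within the dashed lines.

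Levels of different genes were compared as CPM per kilobase of annotated exon. With negative siRNA, Dnmt1 had the highest level at 18.9 ± 2.29, followed by Dnmt3a at 15.1 ± 1.41 and Tet3 at 11.8 ± 0.84 CPM per kb (SD, n = 3 each). Uhrf1 at 9.70 ± 1.76 and Uhrf2 at 8.41 ± 0.54 CPM per kb came next. Tet3 overlapped with Uhrf1, and Uhrf1 with Uhrf2, so these neighbours did not differ beyond their spread. Tet2 at 2.80 ± 0.30, Tet1 at 1.29 ± 0.25, Dnmt3b at 0.82 ± 0.003 and Tdg at 0.32 ± 0.04 CPM per kb followed without overlap. Among the 15392 genes tested that have an annotated length, Dnmt1 stood at the 83.7th percentile and Tdg at the 9.80th.

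After knockdown the order was Dnmt3a, Tet3, Uhrf1, Uhrf2, Dnmt1, Tet2, Tet1, Dnmt3b and Tdg, with no overlap between neighbours. Dnmt3a then measured 17.8 ± 0.20 and Dnmt1 4.63 ± 0.41 CPM per kb. Dnmt1 had moved from the 1st to the 5th place and still lay above Tet2, at 2.89 ± 0.23 CPM per kb. The order depends on which length is used. With the length of the longest transcript, Dnmt3a at 25.9 CPM per kb came before Dnmt1 at 23.8, because the 18 annotated transcripts of Dnmt3a cover 16642 bp together and 9685 bp in the longest. Uhrf2 moved from the 5th to the 3rd place, at 20.4 CPM per kb against 18.1 for Tet3 and 11.5 for Uhrf1. After knockdown with that length, Dnmt3a was followed by Uhrf2 at 18.7, Tet3 at 15.5 and Uhrf1 at 9.93 CPM per kb. Dnmt1 was in the 5th place after knockdown with each length. With stretches that occur in no other gene as length, Tdg came before Dnmt3b in both treatments, at 1.14 and 1.06 CPM per 1000 stretches with negative siRNA.

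**Figure D3:**
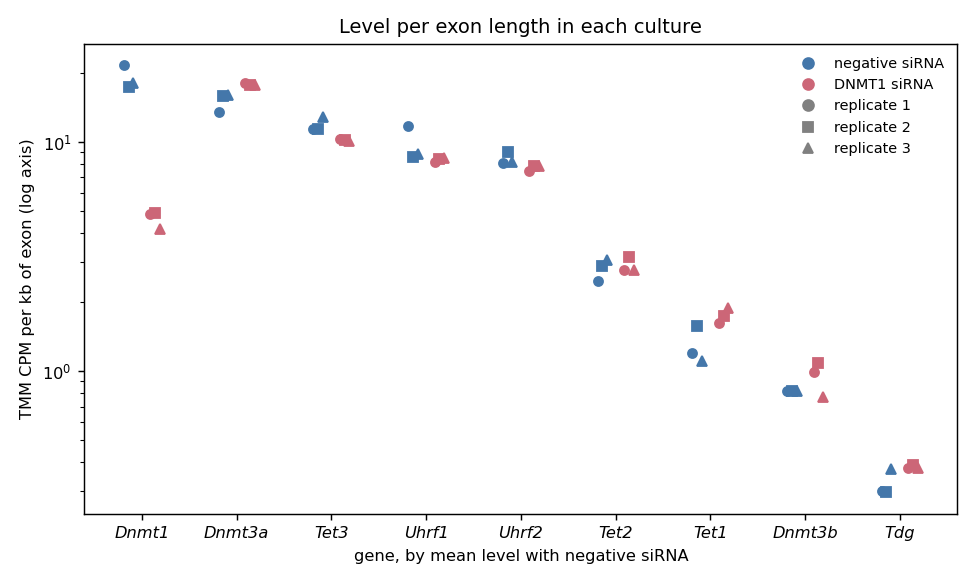
Level of each gene in CPM per kb of exon (log axis) in every culture, ordered by the negative siRNA mean, with negative siRNA in blue, DNMT1 siRNA in red and a symbol for each replicate number. The red points of Dnmt1 lie at 4.16 to 4.90 CPM per kb, below those of Uhrf2 at 7.46 to 7.82.

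Shares and ratios within a culture do not depend on how libraries are scaled. Of the summed level per kb of Dnmt1, Dnmt3a and Dnmt3b, Dnmt1 made up 60.1%, 50.9% and 51.7% with negative siRNA and 20.2%, 20.7% and 18.4% with DNMT1 siRNA. Dnmt3a made up 37.6%, 46.7% and 46.0% before and 75.6%, 74.8% and 78.2% after knockdown. After knockdown Dnmt3a held most of the methyltransferase RNA in every culture, and the groups were far apart (exact permutation test, two-sided, p = 0.1 for both genes, the smallest possible). With the longest transcript as length, the share of Dnmt1 was 46.9% and 15.5%. The summed level of the 3 methyltransferases was 34.8 ± 0.97 CPM per kb with negative siRNA and 23.4 ± 0.71 CPM per kb with DNMT1 siRNA, or 67.1% of it (SD, n = 3 each, exact permutation p = 0.1). The targeted gene is part of each share and of this sum, so the knockdown by itself moves them. They are no test of a rise in Dnmt3a, which was not called.

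The ratio of Dnmt3a to Dnmt1 was 0.63, 0.92 and 0.89 with negative siRNA and 3.73, 3.61 and 4.24 with DNMT1 siRNA, a difference of 2.27 on the log2 scale. Uhrf1 per Dnmt1 went from between 0.49 and 0.55 to between 1.70 and 2.04, a log2 difference of 1.83. In the same cultures Dnmt1 itself fell by 2.03 on the log2 scale. Among the dioxygenases, Tet3 per Tet2 was between 3.93 and 4.64 with negative siRNA and between 3.22 and 3.71 with DNMT1 siRNA, a log2 difference of -0.27. Tet1 per Tet2 was 0.49, 0.55 and 0.36 against 0.58, 0.55 and 0.68, where replicate 2 of both treatments was nearly equal. Tet3 made up 74.3% ± 2.21 of the summed Tet level with negative siRNA and 68.7% ± 1.29 with DNMT1 siRNA, and Tet1 made up 8.16% ± 1.74 and 11.8% ± 0.94 (SD, n = 3 each). The summed Tet level per summed Dnmt level was 0.42, 0.47 and 0.49 with negative siRNA and 0.61, 0.63 and 0.65 with DNMT1 siRNA. The summed Tet level itself did not rise, at 15.9 ± 0.96 and 14.8 ± 0.21 CPM per kb (SD, n = 3 each). It was lower in every knockdown culture (exact permutation test, two-sided, p = 0.1), with the nearest cultures of the treatments at 15.02 and 15.07 CPM per kb. Of the 7 ratios compared, 6 did not overlap between treatments (exact permutation p = 0.1, adjusted p = 0.117), and Uhrf2 per Uhrf1 overlapped (p = 0.8). The ratios of Dnmt3a and Uhrf1 to Dnmt1 and of Tet to Dnmt hold the targeted gene in the denominator, so the knockdown by itself raises them.

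Genes with near-identical copies share stretches as long as a read with them, and 3 members have such copies. Alignments that were not unique were kept apart from the gene counts, as a total per culture. It was 24706413 to 32930393 with negative siRNA and 21776384 to 25901133 with DNMT1 siRNA. This total exceeded the reads counted on genes in every DNMT1 siRNA culture and in no negative siRNA culture. Its part in the values of these members was not tested. Every stretch of 75 bases, the length of a read, was taken from the longest coding transcript of each member and looked for in all other annotated genes. For Dnmt1, Dnmt3a, Uhrf2, Tet1, Tet2 and Tet3 no stretch was found elsewhere. Of the stretches of Tdg, 55.8% occurred in another gene, of Uhrf1 11.3%, and of Dnmt3b 7.72%. The copies were Gm5648 for Uhrf1, a processed pseudogene at chrX:121334988-121336574 that is 98.3% identical over 1590 bp, and Dnmt3c for Dnmt3b, a neighbouring gene at chr2:153696652-153729907 that is 93.9% identical over 1434 bp. For Tdg they included the processed pseudogenes Gm9855 at chr10:42054113-42055306, Gm5597 at chr7:76244746-76245938 and Tdg-ps at chr15:82516311-82519278, which are 98.7% to 99.3% identical. The stretches below are printed to show why such reads have no unique gene. Each crosses a splice junction of the member, with the bases after the junction in capitals. The Uhrf1 and Tdg stretches lie as 1 uninterrupted run in the pseudogene. The Dnmt3b stretch was found in a spliced transcript of Dnmt3c, and no uninterrupted run in the genome was shown for it.
Uhrf1 exons 7 and 8, also in Gm5648: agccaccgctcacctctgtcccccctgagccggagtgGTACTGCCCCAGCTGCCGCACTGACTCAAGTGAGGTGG
Tdg exons 2 and 3, also in Gm9855: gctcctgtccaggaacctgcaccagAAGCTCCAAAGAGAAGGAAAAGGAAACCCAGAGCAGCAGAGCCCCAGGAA
Dnmt3b exons 15 and 16, also in Dnmt3c: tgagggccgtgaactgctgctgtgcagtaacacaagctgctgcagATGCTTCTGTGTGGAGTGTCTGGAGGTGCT
The Uhrf1 stretch joins chr17:56313215-56313251 to chr17:56315192-56315229 and lies at chrX:121336208-121336282 in the pseudogene. The Tdg stretch joins chr10:82638852-82638876 to chr10:82641316-82641365 and lies at chr10:42055130-42055204 in the pseudogene, and the Dnmt3b stretch joins chr2:153674417-153674461 to chr2:153674858-153674887. All coordinates are of GRCm38.

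Gm5648 had 13.5, 10.0 and 10.7 CPM with negative siRNA and 11.1, 9.94 and 9.79 CPM with DNMT1 siRNA. Uhrf1 held between 75.8% and 78.8% of the reads of the pair in every culture. With the reads of both summed, the log2 fold change was -0.20 (adjusted p = 0.306), close to that of Uhrf1 alone. For Tdg the copies held most of the reads. Gm9855 measured 9.27, 8.86 and 8.85 CPM with negative siRNA and 8.40, 8.12 and 9.11 CPM with DNMT1 siRNA, and Tdg itself held only 14.4% to 20.3% of the sum with its pseudogenes. Summed, Tdg and its pseudogenes measured 11.2, 10.9 and 10.9 CPM with negative siRNA and 10.7, 10.3 and 11.4 CPM with DNMT1 siRNA, and the groups overlapped. Their log2 fold change was -0.03 (adjusted p = 0.871), so the direction of the Tdg value turns when the copies are included. Tdg-ps had 1 read in all 6 cultures together, and Gm5597 had 1 to 14 reads per culture. Dnmt3c had at most 5 reads in any culture. These sums were chosen after the counts of the copies were seen. They hold only reads that were counted on a gene, so reads kept apart as not unique are missing from them. The 3' end of Tdg also overlaps exons of Glt8d2, on the other strand, by 367 bp, and Glt8d2 had 63 to 150 reads per culture.

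**Figure D4:**
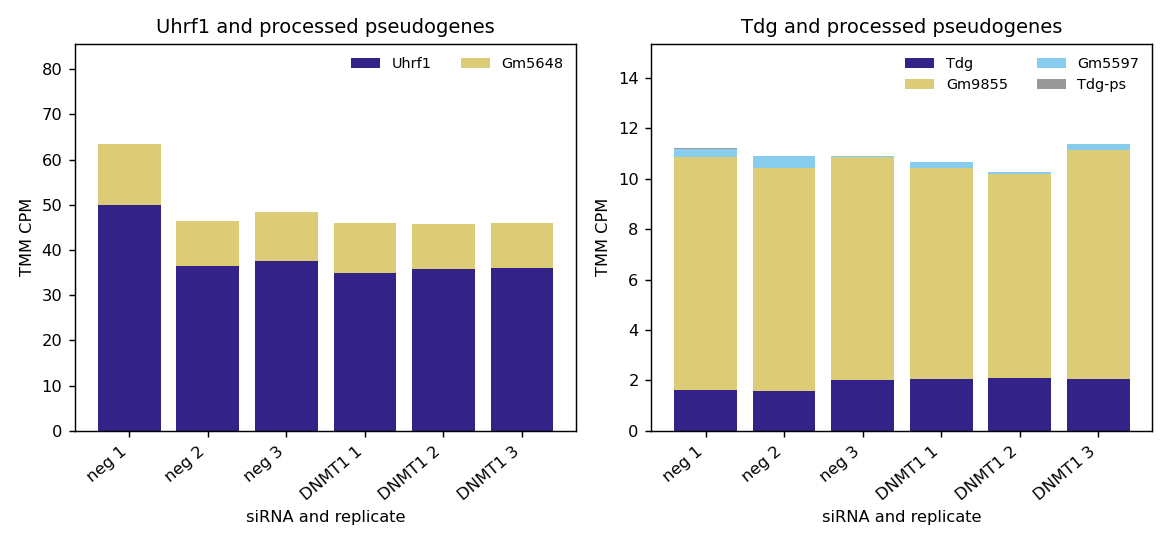
TMM CPM (vertical axis, stacked from 0) of Uhrf1 and Tdg and of their processed pseudogenes in each culture. The stacks of Tdg reach 10.3 to 11.4 CPM, most of it Gm9855, and the tallest stack of Uhrf1 is that of negative siRNA replicate 1 at 63.4 CPM.

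Among the members themselves, sequence shared with Dnmt1 is short. None of the 5851 stretches of 19 bases in the Dnmt1 transcript occurred in any of the other 8 members on the same strand. For each pair of members the longest shared run was looked for over whole transcripts, not over coding parts alone. The longest of these runs, 20 bases between Tet1 and Tdg, lay in untranslated parts. The longest of them that lay in coding parts had 18 bases, in exon 8 of Dnmt3a (chr12:3896037-3896054) and exon 8 of Dnmt3b (chr2:153667551-153667568). It is printed in lower case because every base matches.
Dnmt3a and Dnmt3b: gggcttctcctggtggcc
Uhrf1 and Uhrf2 shared at most 17 bases, as did the coding parts of Tet1 and Tet3. The sequences of the siRNAs themselves were not used here. Apart from Glt8d2, with 63 to 150 reads per culture, other genes that lie across a member were barely counted. Dnmt3aos, an antisense RNA that overlaps exons of Dnmt3a by 133 bp, had 1 to 5 reads per culture, and Dnmt3bos had 0 to 3. The processed pseudogene Dnmt3a-ps1, which lies on another chromosome than Dnmt3a, had 8 to 18. B230319C09Rik, which lies across Tet3 without sharing exons, had 4 to 19, and Mir7081 in Dnmt1, Gm26479 in Tet1 and Mir6374 in Tet3 had at most 2.

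Dnmt1 and Uhrf1 share a promoter motif. E2F factors, which drive genes of S phase, bind TTTCGCGC and the related TTTGGCGC, TTTCCCGC and TTTGCCGC. These were searched on both strands in RefSeq promoter windows of GRCm38.p6, from 250 bases before to 50 bases after each start. TTTCGCGC was found in 0.323% of 32851 windows and any of the 4 motifs in 2.26%. Among the 14 windows of the 9 members, it was found in those of Dnmt1 and Uhrf1, and no other member held any of the 4. The stretches are shown because both genes were highest in negative siRNA replicate 1, the culture with the highest S phase genes. Of the 9 members these 2 (22.2%) were highest there, which is near the 17.0% of all genes tested. Whether E2F factors had a part in these values was not tested, and the shares are over all windows, not matched for base content. The motif is in capitals, and the first line holds its reverse complement.
Dnmt1, chr9:20952824-20952853, minus strand: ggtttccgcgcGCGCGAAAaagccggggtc
Dnmt1, chr9:20952574-20952601, minus strand: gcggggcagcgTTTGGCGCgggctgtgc
Uhrf1, chr17:56304117-56304146, plus strand: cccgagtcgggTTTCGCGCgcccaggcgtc
A match is a match of letters and not a measured site of binding.

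The genes whose log2 CPM followed that of Dnmt1 most closely over the 6 cultures, among 9970 genes with an average log2 CPM above 3, were Yars, Rap1b, Xxylt1, Set and Derl1. Their Pearson correlations were 0.996 to 0.997 and their Spearman correlations 0.89 to 1.0, which mostly describes the step between the 2 treatments, since the cultures fall into those groups. Set, which encodes a histone chaperone, measured 121 to 124 CPM with negative siRNA and 80.1 to 84.2 CPM with DNMT1 siRNA, and Yars, which encodes tyrosyl-tRNA synthetase, 97.3 to 102 CPM and 75.4 to 78.1 CPM. For Uhrf1 the closest were Peg10, Ticrr, Sae1, Tex10 and Spcs3, with Pearson correlations of 0.984 to 0.995. Peg10, an imprinted gene, measured 209.6 CPM in negative siRNA replicate 1 and 74.4 to 87.8 CPM in the other 5 cultures, and Ticrr, a replication initiation factor, 22.4 CPM and 14.8 to 16.3 CPM. These likenesses to Uhrf1 rest on that culture, and the Spearman correlations were 0.49 to 0.94.

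The other genes around DNA methylation were taken from lists. Of 9 methyl-CpG binding protein genes, 0 were called by edgeR's quasi-likelihood test, by its exact test or by DESeq2, and before adjustment 1 was past the threshold with a higher and 2 with lower values, against the 14.9% and 14.3% of all genes tested. Zbtb38, a zinc finger methyl-CpG binder, had a log2 change of 0.28 (SE 0.08, adjusted p = 0.0484). It was past the adjusted threshold, short of 1.5-fold, and higher in all 3 knockdown cultures. At any fold, 12.5% of the genes tested were past that threshold. The list's median was 0.00, and Mbd3 and Mbd2, its most highly expressed members per length, had log2 changes of -0.22 (adjusted p = 0.116) and -0.15 (adjusted p = 0.149). For Mbd3 it was -0.14 without negative siRNA replicate 1.

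Of the 9 tested partners of maintenance methylation, 0 were called by any of the 3 tests and 0 were past the adjusted threshold at any fold, while before adjustment 1, Cdca7, was past it with a lower value. They include Usp7, a deubiquitinase that binds DNMT1 and UHRF1, at 123 ± 5.73 and 124 ± 2.97 CPM (SD, n = 3 each), and the H3K9 methyltransferase gene Ehmt2 at 234 ± 16.6 and 214 ± 4.38 CPM. Pcna, the replication clamp, had a log2 change of -0.05, and Hells, a chromatin remodeler, -0.09. Both turned without negative siRNA replicate 1, to 0.04 and 0.09. Dppa3, whose product keeps UHRF1 off chromatin, was almost without reads and was not tested. The median of the list was -0.13, and -0.04 without that culture. Of the 2 other methyltransferase homologs, Dnmt3l, the catalytically inactive cofactor of the de novo enzymes, was at or below 0.47 CPM in every culture and was not tested, and Trdmt1, a tRNA methyltransferase, changed by 0.09 on the log2 scale (adjusted p = 0.821).

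Of 19 tested genes for base excision repair and partners of TET enzymes, 1 was called higher and 1 lower, against 4.26% and 2.23% of all genes tested. Before adjustment 3 were past the threshold with higher and 3 with lower values, against 14.9% and 14.3%. Cxxc4, whose product binds unmethylated CpG and acts on TET2 protein, measured 2.66, 3.05 and 3.01 CPM with negative siRNA and 5.37, 5.50 and 4.82 CPM with DNMT1 siRNA. All knockdown cultures were higher, and the log2 change was 0.85 (SE 0.16, adjusted p = 0.0143). Gadd45a, a stress response gene linked to DNA demethylation, measured 14.6, 19.6 and 18.4 CPM and then 12.4, 7.79 and 9.72 CPM, a log2 change of -0.81 (SE 0.19, adjusted p = 0.0287). Both calls were lost when some single cultures were left out. The adjusted p of Cxxc4 was 0.0533 to 0.0881 without any of the DNMT1 siRNA cultures, and that of Gadd45a was 0.117 without DNMT1 siRNA replicate 2, 0.108 without DNMT1 siRNA replicate 3 and 0.0595 without negative siRNA replicate 3. Gadd45g, a paralog of Gadd45a, had 0.42 (SE 0.09, adjusted p = 0.0259) and Polb, the repair polymerase gene, -0.54 (SE 0.14, adjusted p = 0.0398), both short of 1.5-fold. Polb reached -0.60 (adjusted p = 0.0386) without negative siRNA replicate 1 and was then called lower. Idh2, which encodes a mitochondrial isocitrate dehydrogenase, measured 99.1 ± 22.9 and 82.2 ± 4.09 CPM (SD, n = 3 each, adjusted p = 0.263), and its log2 change went from -0.27 to -0.07 without negative siRNA replicate 2.

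The methionine and folate cycles supply the methyl donor, and 2 of 14 tested genes of these cycles were called, both lower. Among all genes tested, 2.23% were called lower. Shmt2, which encodes the mitochondrial serine hydroxymethyltransferase, measured 98.3, 128 and 111 CPM with negative siRNA and 50.4, 50.6 and 53.6 CPM with DNMT1 siRNA. Mthfd2, whose product acts in the next step of the mitochondrial folate pathway, measured 79.0, 73.3 and 78.2 CPM and then 41.0, 41.4 and 41.5 CPM. In both genes the groups were far apart and the knockdown cultures nearly equal to each other. The log2 fold changes were -1.12 (SE 0.10, adjusted p = 0.000911) and -0.90 (SE 0.07, adjusted p = 0.000615), and both calls held in every alternative fit. The cytosolic counterparts Shmt1 and Mthfd1 had log2 changes of -0.52 (adjusted p = 0.177) and 0.00 (adjusted p = 0.984), and -0.20 and 0.13 without negative siRNA replicate 1. Mat2a, which makes the methyl donor S-adenosylmethionine, was at 102 ± 13.8 and 104 ± 4.91 CPM, and Ahcyl1, related to the hydrolase of its product, at 265 ± 10.1 and 256 ± 5.38 CPM (SD, n = 3 each). The list's median was -0.05.

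Of 22 genes of S phase and cycling cells, 0 were called by edgeR's quasi-likelihood or exact test and 1, Cdt1, was called lower by DESeq2. Before adjustment 0 were past the threshold with higher and 5 with lower values, against 14.9% and 14.3% of all genes tested. The list's median was -0.11, and 0.01 without negative siRNA replicate 1, the culture in which most of these genes were highest. Mcm6, a helicase subunit, and Cdt1, a licensing factor, were past the adjusted threshold with log2 changes of -0.43 (SE 0.07, adjusted p = 0.00910) and -0.57 (SE 0.11, adjusted p = 0.0171). Mki67 changed by 0.11 on the log2 scale (adjusted p = 0.572) and Top2a by -0.13 (adjusted p = 0.489). Without that culture Mki67 was at 0.28 (adjusted p = 0.0336), short of 1.5-fold, and Top2a at 0.02 (adjusted p = 0.894).

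**Figure D5:**
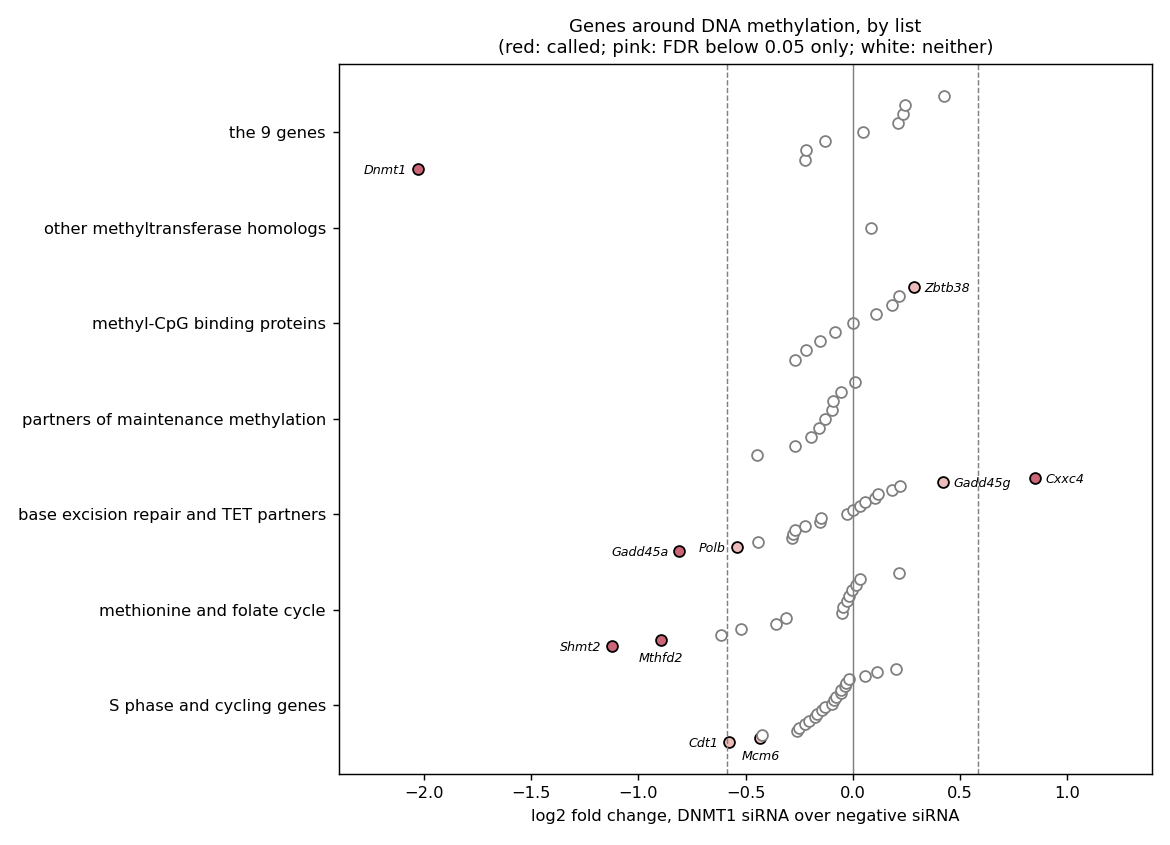
Log2 fold change of DNMT1 siRNA over negative siRNA (horizontal axis) for each tested gene of 7 lists, with red points for called genes, pink points for genes past the adjusted threshold only and white points for the rest. Dnmt1 stands alone at -2.03, followed by Shmt2 at -1.12 and Mthfd2 at -0.90, and Cxxc4 has the highest value at 0.85.

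Cell type markers moved between the treatments as well. Of the 9 cardiomyocyte markers, 6 were called higher, among them Ttn, the giant sarcomere protein gene, at 1.98 on the log2 scale (adjusted p = 0.00118), and 3 of the 7 fibroblast markers were called lower, namely Col1a1, Col1a2 and Dcn. Among all genes tested, 4.26% were called higher and 2.23% lower. The fall of Col1a1 was from 19722, 30104 and 19915 CPM to 14944, 14381 and 14998 CPM, and without negative siRNA replicate 2 its log2 fold change was -0.42, short of 1.5-fold. Col1a2 went from -0.69 to -0.44 without that culture, and its call was lost as well. Without it 8 cardiomyocyte markers were called higher. Of the 5 endothelial markers, Emcn and Kdr were called higher, whereas Tek was past the adjusted threshold with lower values, at -0.35 on the log2 scale (adjusted p = 0.0373), short of 1.5-fold. Without negative siRNA replicate 2, Pecam1 and Cdh5 were called higher too, and without replicate 1 the call on Kdr was lost (adjusted p = 0.0659). Of the smooth muscle, epicardial, macrophage and erythroid markers, 0 of the 13 tested were called by edgeR's quasi-likelihood test. Before adjustment 1 was past its threshold with higher and 8 with lower values, against 14.9% and 14.3% of all genes tested, and edgeR's exact test and DESeq2 called the macrophage markers Csf1r and Adgre1 lower. The exact test also called Cnn1 lower and Alas2 higher. The quasi-likelihood test called 2 macrophage and 2 smooth muscle markers lower without negative siRNA replicate 1, and none of either list without replicate 2. The most highly expressed of them per length moved by -0.51 (Acta2), -0.43 (Tagln), -0.09 (Msln), 0.23 (Upk3b), 0.18 (Cd68) and -0.96 (Csf1r) on the log2 scale. Without negative siRNA replicate 2, Acta2, Tagln and Upk3b moved by -0.32, -0.22 and 0.11, and without replicate 1 Cd68 turned to -0.06. Vcam1, which is among the 9 cardiomyocyte markers and whose protein was used for the sort, changed by -0.26 (adjusted p = 0.148). Its direction was opposite to that of the 6 called markers of its list. The part of these shifts in the values of the 9 genes was not tested.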

How the data were processed

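Poly(A) RNA of VCAM1-sorted cardiomyocytes was sequenced in 3 cultures per treatment. The authors cleaned the single-end reads after FastQC, aligned them to mm10 using TopHat2, and used HTSeq to obtain gene counts against an Ensembl annotation. The deposited values are these raw counts, 1 table per culture. The kit does not mark strand. Totals of unassigned reads were kept out of library sizes.

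Counts were analysed here with R 4.3.3 and edgeR 4.0.16 (TMM, filterByExpr with a minimum count of 10 and a minimum total of 15, quasi-likelihood F test, Benjamini-Hochberg adjustment over 15470 genes), with DESeq2 1.42.0 as an alternative. Each SE was derived from the size of the log2 change and its F statistic. The limits of the study, an adjusted p below 0.05 and a fold change above 1.5, were kept. Log2 CPM used a prior count of 2. Positions, lengths and transcripts came from a GENCODE annotation of GRCm38 newer than the authors' Ensembl annotation, similarity from BLAST 2.17.0, and promoters from RefSeq. The fit was checked on simulated counts. No pair of libraries was a duplicate, with a chi-square per degree of freedom of 2.89 to 59.7.

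All 9 members were named, and from each other list the called genes up to 6 and the 2 highest per length, the 5 genes most like Dnmt1 or Uhrf1 in profile, and overlapping genes and pseudogenes. Other list genes are named in addition, chosen after their values were seen, and 1 gene is not reported here. The members and lists were chosen with earlier results of these data known. Alternatives were RLE scaling, library totals, no filter, DESeq2, edgeR's exact test, a replicate block, each culture left out, another length and, added after seeing the data, summed pseudogene reads and unique stretches as length.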

Additional observations from a re-analysis of the deposited data

How the results depend on the processing

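The fall of Dnmt1 kept its direction and its call in every alternative. Its log2 fold change ranged from -2.09 to -1.92 with each culture left out, and was -2.06 with DESeq2 and -2.07 with library totals only. Members called lower stayed at 1 in every fit, and members called higher went from 0 to 1, Tet1, without negative siRNA replicate 2. Over all genes, 659 higher and 345 lower calls became 994 and 701 without the filter on low counts, 646 and 495 with DESeq2, and 607 and 434 with library totals only. With each culture left out they ranged from 255 to 823 and from 112 to 472, with the lowest counts without a DNMT1 siRNA culture (316 and 146, 255 and 112, 314 and 145 without replicates 1, 2 and 3). The share of Dnmt1 in the 3 methyltransferases moved to 46.9% and 15.5% with the longest transcript as length, and ranged from 51.3% to 55.9% and from 19.3% to 20.5% with each culture left out. Uhrf1 moved to -0.05 without negative siRNA replicate 1, and Tdg to -0.03 with pseudogene reads added. Among other named genes, the cardiomyocyte, fibroblast and endothelial calls on Tnnt2, Nkx2-5, Col1a1, Col1a2, Dcn, Emcn and Kdr and those on Cxxc4 and Gadd45a were lost in at least 1 fit, and the causes were not tested.

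No pairing of the cultures by equal replicate numbers was seen. The deviations of same-numbered cultures from their group means correlated at -0.021 to 0.027 over genes, so the numbers were treated as names. This cannot exclude pairing, because the DNMT1 siRNA cultures differed little from each other. Their chi-square per degree of freedom was 2.89 to 10.7, against 28.9 to 59.7 among the negative siRNA cultures. With the replicate block, Dnmt1 had a log2 fold change of -2.03, 513 genes were called higher and 285 lower, and no other member was called. The block ended the calls on Gadd45a (adjusted p = 0.0672), Col1a1, Col1a2 and Kdr (adjusted p = 0.0582 to 0.0683). Counts of 27 to 60 reads limit Tdg, and 52 to 155 reads limit Dnmt3b.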
